A study of Mus musculus with 5 samples.

Results

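Of the 14469 annotated Nr1d1 ChIP peaks that overlap no IgG peak, 5749 lie between genes and within 100 kb of a transcription start site (TSS), and these intergenic peaks are described here. They were chosen from the authors' HOMER annotation by 2 columns, the class "Intergenic" and a distance to the nearest TSS of at most 100 kb on either side. The same 2 columns gave 7049 of 17110 annotated IgG peaks, which serve as the background, and 2530 ChIP-specific intergenic peaks lie farther than 100 kb from a TSS. Of the 7049 IgG peaks 5063 overlap no ChIP peak, and the rest were kept in the background. A distance runs from the centre of a peak to the TSS, with negative values upstream of the gene, and all coordinates are mm10 as deposited.

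The study mapped Nr1d1 binding by ChIP-seq (chromatin immunoprecipitation with an antibody, followed by sequencing) in cultured mouse Th1 cells, the CD4 T helper cells that make IFNγ. Naive CD4 T cells from lymphoid organs of wild-type C57BL/6 mice aged 4 to 6 weeks were activated with anti-CD3 on the plate and anti-CD28 in solution, given IL-12, IFNγ and anti-IL4, harvested on days 3 to 4 and fixed in 1% formaldehyde for 30 min. There were 3 Nr1d1 ChIP libraries, 1 IgG mock library and 1 input library, all from such cells. Since the IgG and input libraries carry the same Nr1d1 antibody label as the ChIP libraries, the groups come from the titles, and nothing in the labels says whether the 3 ChIP libraries came from separate mice or cultures.

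Nr1d1, also called REV-ERBα, is a nuclear receptor that binds heme and represses transcription in the circadian clock. It recognises a nuclear receptor half-site with an A/T-rich flank, the RORE, alone or as a spaced pair, and recruits the NCoR-HDAC3 corepressor. Much of its binding in tissues such as liver is away from promoters, at distal elements that can act on genes some way off, so the nearest gene of an intergenic peak is a position and not a shown target.

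The peak lists are given per antibody, with no value per library, no read count, no peak height and no fold over input. Each peak has a length in steps of 25 bp and a false discovery rate (FDR, the q-value of the peak) printed to 6 decimals, with all values under 0.05. The read depth behind a peak is therefore unknown. Every interval and p-value below counts peaks of deposited lists, and compares those lists rather than cells or mice.

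The only intergenic peaks whose DNA could be read here were the 19 (0.330% of 5749) that reach into 250 bases upstream of a RefSeq start (GRCm38.p6) missing from, or placed elsewhere in, the authors' annotation. They touched 20 such windows, 5 of protein-coding genes and 15 of long noncoding RNAs. The share was 0.298% for the IgG peaks, 21 of 7049 over 26 windows. The 8 windows below are shown because they belong to the protein-coding genes with a given name (Asphd2, Smim15, Trak1 and Vamp9), the noncoding RNA with the lowest peak FDR (4930442E04Rik), a named noncoding RNA (Cistr) and both windows that hold the half-site AGGTCA (Gm33070 and Gm34081). They were picked after their values were seen. Each is read 5′ to 3′ on the gene's strand and ends at the base before the RefSeq start. Capitals mark the bases under the peak.
Asphd2, chr5:112394774-112395023, minus strand: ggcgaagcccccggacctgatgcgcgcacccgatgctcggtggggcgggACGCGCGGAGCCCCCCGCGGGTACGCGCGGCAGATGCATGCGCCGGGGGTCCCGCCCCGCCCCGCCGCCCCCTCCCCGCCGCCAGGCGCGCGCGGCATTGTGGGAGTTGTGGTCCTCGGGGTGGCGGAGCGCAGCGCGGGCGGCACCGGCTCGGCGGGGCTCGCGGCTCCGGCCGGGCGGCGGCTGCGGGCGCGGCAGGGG
Smim15, chr13:108044224-108044473, plus strand: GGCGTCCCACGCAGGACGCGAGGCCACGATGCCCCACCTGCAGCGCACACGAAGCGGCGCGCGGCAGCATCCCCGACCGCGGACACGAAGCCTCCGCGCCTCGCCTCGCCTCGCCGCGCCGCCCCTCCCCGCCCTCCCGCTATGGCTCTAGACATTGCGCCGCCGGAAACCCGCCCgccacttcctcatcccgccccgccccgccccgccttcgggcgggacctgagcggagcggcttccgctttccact
Trak1, chr9:121297252-121297501, plus strand: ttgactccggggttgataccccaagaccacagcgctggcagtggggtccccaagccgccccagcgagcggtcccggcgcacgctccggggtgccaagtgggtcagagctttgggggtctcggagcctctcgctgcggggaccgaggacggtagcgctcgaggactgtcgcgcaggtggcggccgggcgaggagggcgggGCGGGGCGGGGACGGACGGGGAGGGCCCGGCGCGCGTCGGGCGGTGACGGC
Vamp9, chr5:99906015-99906264, plus strand: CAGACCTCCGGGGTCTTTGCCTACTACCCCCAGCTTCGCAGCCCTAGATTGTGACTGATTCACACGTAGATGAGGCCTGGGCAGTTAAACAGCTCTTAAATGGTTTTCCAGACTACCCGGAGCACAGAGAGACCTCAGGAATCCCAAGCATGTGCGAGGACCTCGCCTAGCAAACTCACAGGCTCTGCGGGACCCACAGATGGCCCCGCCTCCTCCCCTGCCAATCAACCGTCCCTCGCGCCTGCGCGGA
4930442E04Rik, chr19:59171531-59171780, plus strand: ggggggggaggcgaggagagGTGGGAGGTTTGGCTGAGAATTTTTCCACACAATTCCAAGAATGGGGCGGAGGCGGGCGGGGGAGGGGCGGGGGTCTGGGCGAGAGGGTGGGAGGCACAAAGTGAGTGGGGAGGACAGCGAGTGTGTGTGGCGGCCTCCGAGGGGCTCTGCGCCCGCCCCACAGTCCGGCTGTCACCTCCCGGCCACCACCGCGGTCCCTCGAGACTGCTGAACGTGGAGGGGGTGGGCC
Cistr, chr15:102746910-102747159, minus strand: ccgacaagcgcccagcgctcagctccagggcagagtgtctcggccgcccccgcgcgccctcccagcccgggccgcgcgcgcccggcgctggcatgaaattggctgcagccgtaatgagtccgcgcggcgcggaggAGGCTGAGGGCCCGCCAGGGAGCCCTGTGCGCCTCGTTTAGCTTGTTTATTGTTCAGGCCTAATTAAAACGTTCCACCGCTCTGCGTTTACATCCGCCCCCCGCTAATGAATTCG
Gm33070, chr4:110152419-110152668, plus strand: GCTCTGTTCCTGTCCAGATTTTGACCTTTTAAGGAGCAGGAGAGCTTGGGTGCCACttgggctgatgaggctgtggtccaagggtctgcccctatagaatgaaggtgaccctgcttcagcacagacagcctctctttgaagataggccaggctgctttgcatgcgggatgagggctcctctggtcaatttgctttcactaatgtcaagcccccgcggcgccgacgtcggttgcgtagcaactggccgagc
Gm34081, chr12:109539765-109540014, minus strand: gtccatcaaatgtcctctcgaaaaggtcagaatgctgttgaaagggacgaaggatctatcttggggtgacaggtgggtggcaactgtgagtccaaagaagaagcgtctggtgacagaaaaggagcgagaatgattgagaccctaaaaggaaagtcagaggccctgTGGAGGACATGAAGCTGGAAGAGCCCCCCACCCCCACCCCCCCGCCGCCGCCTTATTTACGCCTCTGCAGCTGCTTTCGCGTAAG

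Asphd2 encodes a membrane protein with an aspartyl hydroxylase domain, and its peak (350 bp, FDR 0.007882) covered 201 of the 250 upstream bases although the authors' annotation placed it 2587 bp upstream of the gene. The window had a GC content of 83.2%, the highest of the 20 and shared with that of Gm10419. Smim15, which encodes a small membrane protein, had a 225 bp peak (FDR 0.008874) over 176 upstream bases at a GC content of 75.6%. That peak also touched the start of Gm41055, a noncoding RNA on the other strand, which is why 19 peaks met 20 windows. Trak1 encodes an adaptor that couples mitochondria to kinesin, and the peak over 51 bases of its window (125 bp, FDR 0.026097) had been assigned to Ulk4, 20315 bp away. The peak of Vamp9 (300 bp, FDR 0.010224) covered all 250 bases of the window and had been assigned to Gm22838, 22256 bp away.

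The peak with the lowest FDR of the 19 (0.005409, 375 bp) covered 230 bases of the 4930442E04Rik window and was assigned to Vax1, a homeobox gene of eye and forebrain development, 1681 bp upstream of its TSS. The Cistr window was covered over 115 bases by a 175 bp peak (FDR 0.009283) assigned to Calcoco1. The Gm34081 peak (100 bp, FDR 0.016315) lay 1201 bp upstream of Meg3, an imprinted noncoding RNA gene. GC content had a median of 57.8% over the 20 windows and ranged from 35.2% to 83.2%, against medians of 50.2% for the 26 IgG windows and 52.4% for all 32851 RefSeq windows of this length.

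The windows were searched on both strands for 3 motifs: the half-site AGGTCA, the longer core TAGGTCA that contains it, and the RORE consensus, which can overlap both. The E-box CACGTG, the site of the CLOCK-BMAL1 activator, was added. AGGTCA was found in 2 of the 20 windows and under 1 peak, that of Gm33070, where it reads TGACCT on the printed strand. In the Gm34081 window it lay outside the peak. The core and the RORE were found in 0 of 20 windows, and CACGTG in 1, that of Gm38418, under the peak. Of the 26 IgG windows 2 held AGGTCA, 1 of them under the peak, and none held the core, the RORE or CACGTG. Among all 32851 windows 14.0% held AGGTCA, 2.23% TAGGTCA, 0.332% the RORE and 6.02% CACGTG.

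The promoters of genes with a nearby peak were also read. Of 491 RefSeq windows of genes with one of these intergenic peaks within 10 kb, 64 (13.0%) held AGGTCA, 8 (1.63%) TAGGTCA, 0 the RORE and 28 (5.70%) CACGTG. Each share was below that over all windows, and no test was made of it. A match is a description of letters in a window. The peaks of Asphd2, Smim15 and Gm10419 reach into the windows of those genes, and the other peaks of these genes lie outside their windows. Apart from the windows read above, the DNA under the intergenic peaks was not used here.

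The first comparison asked whether the intergenic ChIP-specific peaks sit in other places than the intergenic IgG peaks. No difference in position passed the threshold. The median distance to the TSS was 28306 bp (quartiles 12000 and 55638) for the ChIP-specific peaks and 29545 bp (12372 and 57161) for the IgG peaks. Within 10 kb of a TSS lay 1197 ChIP-specific peaks (20.8%, Wilson 95% interval 19.8 to 21.9) and 1463 IgG peaks (20.8%, 19.8 to 21.7). The difference was 0.0663 percentage points (95% interval -1.34 to 1.48, two-sided Fisher's exact test, adjusted p = 0.930 over 4 comparisons). With only the closest peak kept for each gene, the difference became -2.44 points (exact adjusted p = 0.0481), with 27.5% of 4134 ChIP-specific against 29.9% of 4585 IgG peaks.

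**Figure D1:**
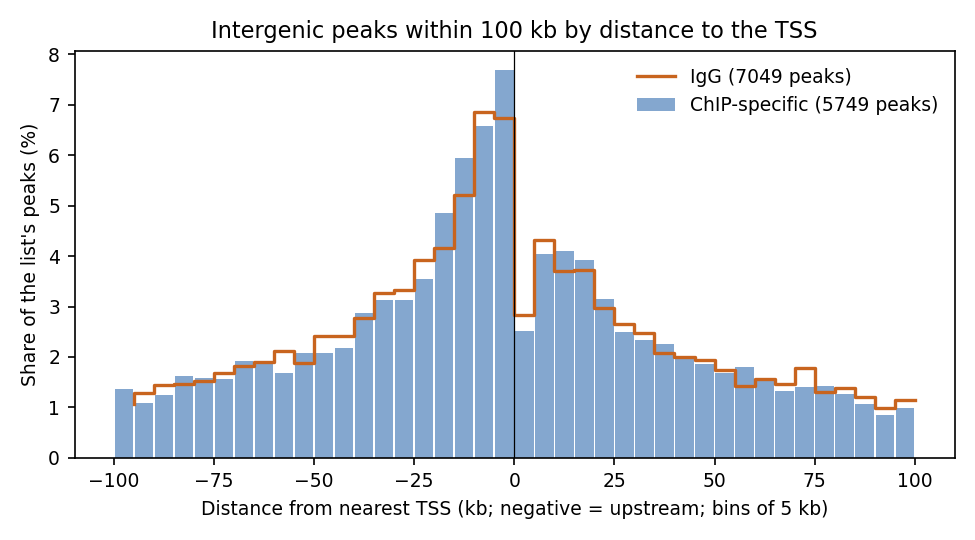
Share of intergenic peaks (%, vertical axis) in 5 kb bins of signed distance to the nearest TSS (kb, horizontal axis), as bars for the 5749 ChIP-specific peaks and as a line for the 7049 IgG peaks. Both lists are densest within 10 kb upstream of the TSS; the 5 kb just downstream hold 2.52% and 2.82%, less than the next 3 bins out to 20 kb, and shares are lower again farther out.

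Peaks lay upstream of the nearest gene more often than downstream. Of the ChIP-specific peaks 3335 were upstream (58.0%, 56.7 to 59.3), against 4038 IgG peaks (57.3%, 56.1 to 58.4), a difference of 0.725 points (-0.996 to 2.44, Fisher's exact test, adjusted p = 0.558). The upstream share of the ChIP-specific peaks was 75.3% within 5 kb, 62.0% from 5 to 10 kb, 56.2% from 10 to 25 kb, 55.1% from 25 to 50 kb and 54.5% from 50 to 100 kb. The IgG shares in the same bins were 70.5%, 61.3%, 56.1%, 56.0% and 53.6%. The intergenic class leaves out peaks inside a gene, whose side of the TSS was not counted here. Whether this bears on the upstream shares was not tested. The 5 distance bins held 587, 610, 1467, 1398 and 1687 ChIP-specific peaks, and their median FDR stayed between 0.0144 and 0.015217.

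Most of the nearest genes were gene models without a given name. A predicted gene, meaning a name of the form Gm with digits, a name ending in Rik or a clone or sequence accession, was the nearest gene of 3694 ChIP-specific peaks (64.3%, 63.0 to 65.5) and 4637 IgG peaks (65.8%, 64.7 to 66.9). The difference of -1.53 points (-3.19 to 0.132) was not past the threshold (exact adjusted p = 0.294). It passed when the IgG list was limited to peaks that overlap no ChIP peak (-2.31 points, exact adjusted p = 0.0482) and when both lists were limited to an FDR of at most 0.01 (-3.78 points, exact adjusted p = 0.0322). The FDR limit kept 1652 ChIP-specific and 3678 IgG peaks, and FDRs of the 2 lists need not be on the same scale. With 1 peak kept per gene the difference turned to 0.137 points (exact adjusted p = 0.912). Gm models made up 2995 of the ChIP-specific peaks (52.1%), clone-named models 349 and Rik models 326.

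The ChIP-specific peaks named 4134 different nearest genes and the IgG peaks 4585. Of these, 1965 were in both sets, which is 47.5% of the first and 42.9% of the second. Of the 4134 genes 3011 had 1 ChIP-specific peak, 775 had 2, 248 had 3, 72 had 4 and 28 had 5 or more. In the IgG list 85 genes had 5 or more. Another peak of its own list lay within 10 kb for 840 ChIP-specific peaks (14.6%) and for 17.5% of the IgG peaks.

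The class label was checked against the RefSeq annotation of the same build. Of the 5749 peaks 822 (14.3%) overlapped a RefSeq gene body, 525 of them (9.13% of all) a long noncoding RNA and 232 (4.04%) a protein-coding gene. The corresponding IgG share was 14.1%, 994 of 7049. Intergenic therefore means intergenic in the authors' annotation.

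Although none of these peaks overlaps an IgG peak, many lie near one. The gap to the nearest IgG peak had a median of 34064.5 bp and a minimum of 2 bp. It was at most 1 kb for 131 peaks (2.28%), at most 10 kb for 1159 (20.2%) and at most 100 kb for 4578 (79.6%). Among the ChIP-specific intergenic peaks beyond 100 kb of a TSS, 20.3% had an IgG peak within 10 kb. A ChIP peak that does overlap an IgG peak lay within 10 kb of 354 of the 5749 peaks (6.16%).

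The second comparison set the peaks within 100 kb against those of the same list farther away, which share the scale of FDR and length. Peaks within 100 kb had low FDRs and long intervals slightly more often. An FDR of at most 0.01 was found for 1652 peaks within 100 kb (28.7%, 27.6 to 29.9) and 666 of 2530 beyond (26.3%, 24.6 to 28.1), a difference of 2.41 points (0.314 to 4.47, Fisher's exact test, adjusted p = 0.0256 over 4 comparisons). A length of at least 300 bp was found for 705 (12.3%, 11.4 to 13.1) and 248 (9.80%, 8.70 to 11.0), a difference of 2.46 points (0.989 to 3.86, exact adjusted p = 0.00228). The length difference did not pass with 1 peak per gene (1.74 points, exact adjusted p = 0.115). The medians were 0.014843 and 0.015784 for FDR and 200 and 175 bp for length.

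Predicted genes were the nearest genes less often within 100 kb than beyond, 64.3% against 67.2% (1701 peaks, 65.4 to 69.0). This difference of -2.98 points (-5.17 to -0.754) was past the threshold (exact test, adjusted p = 0.0123). The limit itself fell in a continuous run of distances. Just inside were peaks at 99899 bp (Gm17929), 99927 bp (Gm23674) and 99947 bp (Gm21745), and just outside at 100037 bp (Gm6027), 100039 bp (Pja1) and 100068 bp (Epha5). Pja1 has peaks on both sides of the limit.

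The largest of the 4 differences within the ChIP-specific list was on chromosome X. There lay 828 of the peaks within 100 kb (14.4%, 13.5 to 15.3) and 114 of those beyond (4.51%, 3.76 to 5.39), a difference of 9.90 points (8.65 to 11.1, Fisher's exact test, adjusted p = 4.25e-44). The IgG peaks picked the same way had 15.2% on X (1072 peaks, 14.4 to 16.1), and the difference of -0.805 points between ChIP-specific and IgG (-2.04 to 0.435) did not pass (exact adjusted p = 0.423). The large share on X within 100 kb was thus found in the background list as well. IgG peaks beyond 100 kb were not counted, so the difference between within and beyond was not measured in that list.

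**Figure D2:**
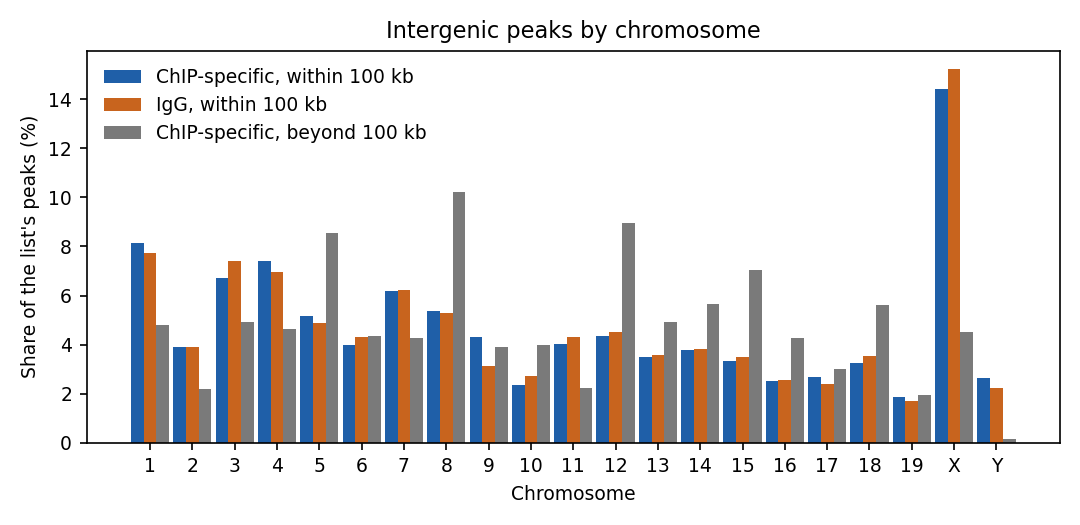
Share of each list's peaks (%, vertical axis) on each mouse chromosome, for ChIP-specific intergenic peaks within 100 kb of a TSS, IgG peaks picked the same way and ChIP-specific intergenic peaks beyond 100 kb. X holds 14.4%, 15.2% and 4.51% of the 3 lists, and the ChIP-specific and IgG bars within 100 kb are close on most chromosomes.

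The Y chromosome had 152 peaks within 100 kb (2.64%), against 156 IgG peaks (2.21%) and 4 ChIP-specific peaks beyond (0.158%). These 152 were 87.4% of the 174 ChIP-specific peaks of any class on Y, whereas the share was 55.7% on X and lowest, 28.6%, on chromosome 10. On Y 92.8% of the peaks were nearest to a predicted gene and the median distance was 12716 bp. The largest median distance was on chromosome 12, 44092 bp. Chromosome 9 held 4.30% of the ChIP-specific and 3.15% of the IgG peaks, and chromosome 1 held 8.16% and 7.75%. The remaining 4 ChIP-specific peaks lay on unplaced scaffolds.

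The strongest intergenic peaks were few. An FDR printed as 0 was given to 67 of the 5749 peaks (1.17%) and to 17 of those beyond 100 kb (0.672%). In the IgG list picked the same way 1121 of 7049 peaks had it (15.9%). That list keeps IgG peaks that overlap a ChIP peak. From the ChIP list, with 7735 peaks of this kind, those that overlap an IgG peak had been removed. FDRs of different lists also need not be on the same scale, so these shares were not tested against each other. The 67 peaks had a median length of 350 bp and none was shorter than 250 bp. Of the 67, 47 (70.1%) were nearest to a predicted gene, 33 were upstream, 16 lay within 10 kb of the TSS and 11 (16.4%) on X. Over all 5749 peaks these shares were 64.3%, 58.0%, 20.8% and 14.4%, and the difference was not tested. An IgG peak lay within 10 kb of 14 of the 67 (20.9%), close to the 20.2% of all 5749.

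In order of FDR and then length, the list was led by predicted genes. The peak of Gm22120 was 800 bp long (chromosome 12, 105882626 to 105883424, 17232 bp upstream), with no IgG peak within 439102 bp. Next came 550 bp peaks at Gm25724 (86890 bp upstream) and Gm12479 (23228 bp upstream). Tex29 followed with 525 bp, and an IgG peak lay 1402 bp from it. Gm28386 had 500 bp, Gm26089 425 bp and Gm23659 400 bp, and 5 further peaks, at Gm11591, Kcnt2, Gm23342, RP23-356F21.1 and Gm26844, had 375 bp each. Kcnt2, a sodium-activated potassium channel gene, had its peak 8771 bp upstream (chromosome 1, 140237201 to 140237574). The first 5 IgG peaks in the same order were at Gm8579 (1100 bp), Scel and Gm23186 (750 bp each) and 2310015B20Rik and Gm13085 (700 bp each).

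Among genes with a given name, taken in the same order after the values had been seen, further peaks of 375 bp and an FDR printed as 0 lay near genes of varied function. Trp63, the p63 transcription factor of epithelial stem cells, had its peak 30351 bp upstream, with an IgG peak 3552 bp away. Qrfp, a neuropeptide gene, had the closest of these, 1207 bp upstream (chromosome 2, 31811601 to 31811974), and the nearest IgG peak was 1337702 bp away. Gpr174, a lysophosphatidylserine receptor of lymphocytes, had its peak 7716 bp upstream (chromosome X, 107247976 to 107248349), 133552 bp from an IgG peak. The others with this length were at Man2a1, Dchs2, Tusc1, Scnn1g, Mtus1 and Adam26b. The gap to the nearest IgG peak was 2227 bp at Adam26b, 3552 bp at Dchs2 and 7427 bp at Mtus1, and 46102 bp at Scnn1g, 110877 bp at Tusc1 and 280677 bp at Man2a1.

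The longest of the 5749 peaks, 850 bp, was not among those with an FDR printed as 0. It lay 6924 bp upstream of Cmklr1, the gene of the chemerin receptor (chromosome 5, 113656926 to 113657774, FDR 0.008488), and the nearest IgG peak was 251027 bp away. The lengths ranged from 100 to 850 bp, and in the IgG list from 100 to 1100 bp.

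The peaks closest to a named gene lay just over 1 kb from the TSS, since closer ones fall into the promoter class. Nefm, a neurofilament subunit gene, had a peak 1004 bp upstream (chromosome 14, 68125776 to 68125924, FDR 0.0144). Camk2n1, which encodes an inhibitor of CaMKII, had a peak 1027 bp upstream, and only 27 bp separated it from an IgG peak. Others were at Vmn1r192 (1039 bp), Olfr111 (1057 bp), n-R5s46 (1081 bp), Procr (1105 bp) and Slc25a4 (1178 bp), all upstream. Procr encodes the protein C receptor and had its peak at chromosome 2, 155749901 to 155750124 (FDR 0.009563). Slc25a4 encodes an ADP/ATP carrier of the mitochondrial inner membrane.

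A few genes collected many intergenic peaks. Gm7560 had 8, Gm22805, Gm23781 and Sfrp1 had 7 each, and 1700003L19Rik, Dctd, Gm17929 and Gm24758 had 6 each. Sox11, added after its count was seen, also had 6. Sfrp1 encodes a secreted antagonist of Wnt signalling. Its 7 peaks lay at -47327, -32215, -10602, -2040, 41198, 46873 and 94323 bp, with FDRs from 0.008802 to 0.044828. The IgG list had no intergenic peak within 100 kb of Sfrp1, but 3 peaks in all. Among them were an exon peak 173 bp downstream of the TSS with an FDR printed as 0 and an intergenic peak just past the limit, at 103848 bp. Sfrp1 is therefore not free of IgG signal.

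Dctd encodes deoxycytidylate deaminase, an enzyme of thymidylate synthesis. Its 6 peaks lay at -53655, -28917, -21055, 52126, 62789 and 67726 bp, with FDRs from 0.010593 to 0.043039, and its only IgG peak was in an intron at 1339 bp. Sox11, a developmental transcription factor, had peaks at -89063, -54601, -49288, -42226, 52774 and 55512 bp. An IgG peak lay 352 bp from the second of these, and an IgG exon peak 1475 bp long covered the start of the gene at 562 bp. Pja1, an X-linked gene of a RING ubiquitin ligase, had 5 peaks, all upstream, from -96664 to -46064 bp. It had 2 intergenic IgG peaks, at -88327 and -3564 bp. Ntm also had 5 peaks, beside 28 IgG peaks of any class, 4 of them intergenic within 100 kb. Peaks of the same gene are neighbours and are not separate evidence on it.

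**Figure D3:**
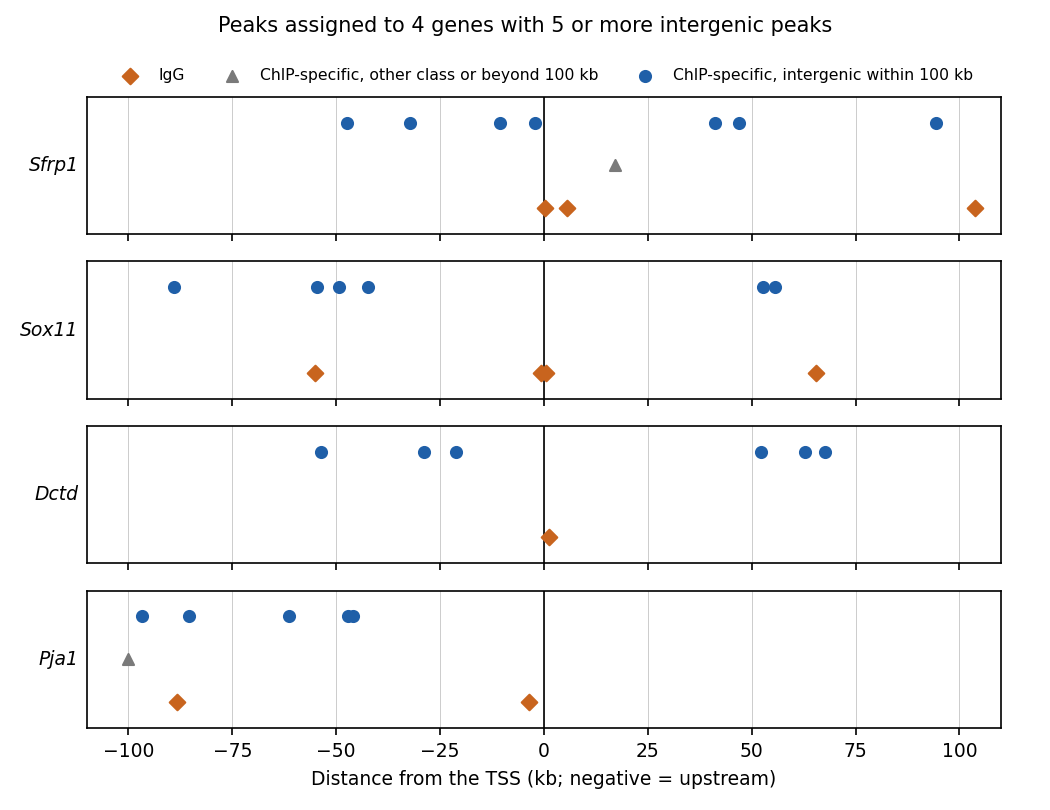
Peaks assigned to Sfrp1, Sox11, Dctd and Pja1 by distance from the TSS (kb, horizontal axis, negative upstream), in 3 rows per gene: intergenic ChIP-specific peaks within 100 kb (circles), other ChIP-specific peaks (triangles) and IgG peaks (diamonds). Sfrp1 and Dctd have 7 and 6 circles with no intergenic IgG peak within 100 kb, while IgG peaks lie at or near the start of all 4 genes.

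The next question was which genes of the clock, of T cells and of cytokine signalling had such a peak. There were 10 lists of these with 251 genes, and 17 genes (6.77%) were nearest to an intergenic ChIP-specific peak. The background share was close: of 21900 protein-coding RefSeq genes 1531, or 6.99%, were nearest to such a peak. For the IgG peaks 15 of the 251 genes (5.98%) were nearest to one, beside a background of 7.53%, and 4 genes had both. The 17 genes had 19 peaks, 12 of them upstream and 5 within 10 kb of the TSS, with a median distance of 17889 bp. Their FDRs ran from 0.003325 to 0.049568, so none was printed as 0, and 5 of 19 were at most 0.01. RefSeq promoter windows were found for 13 of the 17 genes: 2 held AGGTCA (Il17a and Cxcl14), 1 held CACGTG (Cry1), and none held TAGGTCA or the RORE.

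Of 26 core clock genes, 1 had such a peak (3.85%, beside 6.99% of all protein-coding genes). Cry1, a repressor of CLOCK-BMAL1 and a known REV-ERBα target in other tissues, had it 6021 bp upstream (chromosome 10, 85190976 to 85191174, 200 bp, FDR 0.008802), 46877 bp from the nearest IgG peak. IgG peaks of this kind were nearest to 2 clock genes, Hlf and Rora (7.69%, beside 7.53% of all protein-coding genes). Of 9 genes of the NCoR-HDAC3 corepressor none had a ChIP-specific peak, and Tbl1xr1 had an IgG peak.

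The lists of T helper subsets were short, with 14 to 19 genes each. A single gene with a peak made a share of 5.26% for Th1 and 7.14% for Th17, near the 6.99% of all protein-coding genes. Of 19 Th1 genes only Cxcr3, the chemokine receptor of Th1 cells, had one, 9569 bp downstream of the TSS (chromosome X, 101724651 to 101724749, 100 bp, FDR 0.036707). Of 14 Th17 genes Il17a, the cytokine that defines that subset, had one 17493 bp upstream (chromosome 1, 20713276 to 20713549, 275 bp, FDR 0.008802), 38652 bp from an IgG peak. None of 14 Th2 genes and none of 14 regulatory T cell genes was nearest to one, and 2 of the latter, Ikzf2 and Tgfbr2, had an IgG peak. Of 35 genes of the T cell receptor and costimulation, Btla, an inhibitory receptor, had a peak 77750 bp downstream (FDR 0.013663).

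Of 27 T cell transcription factors 3 (11.1%) had a ChIP-specific peak and none an IgG peak, beside 6.99% and 7.53% of all protein-coding genes. Id3, an inhibitor of E proteins, had it 10576 bp downstream (chromosome 4, 136155451 to 136155649, FDR 0.021425). Prdm1, which encodes BLIMP-1, a transcriptional repressor of effector lymphocytes and plasma cells, had it 46012 bp downstream (chromosome 10, 44412551 to 44412799, 250 bp, FDR 0.008874). Zeb1, a zinc finger repressor, had it 88831 bp downstream (FDR 0.034448). IgG peaks were far from all 3 of them, at 679827, 711752 and 326177 bp. The difference between 3 genes and 0 was not tested.

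Interleukins and their receptors had 6 genes of 48 with a ChIP-specific peak (12.5%) and 6 with an IgG peak, 3 of them in common. The shares of all protein-coding genes were 6.99% and 7.53%, and the difference was not tested. Il12b, the subunit shared by IL-12 and IL-23, had the closest, 3213 bp upstream (chromosome 11, 44396751 to 44396949, 200 bp, FDR 0.016315), and its nearest IgG peak was 215177 bp away. Il17rd followed at 17889 bp upstream and Il1rapl1 at 33330 bp upstream. Il1rapl2, Il13ra2 and Il7, a cytokine needed for T cell survival, had the farthest, at -74696, 75345 and -78727 bp, and are the 3 genes with IgG peaks too. Il1rapl1, Il1rapl2 and Il13ra2 are X-linked.

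Chemokines and their receptors had 4 genes of 46 with 6 ChIP-specific peaks, and 4 genes with an IgG peak. Each count was 8.70% of the list, beside 6.99% and 7.53% of all protein-coding genes. Ccl26, an eotaxin gene, had the lowest FDR of all 19 peaks of these lists, 0.003325, 3368 bp upstream (chromosome 5, 135566776 to 135567099, 325 bp). Its neighbour Ccl24, another eotaxin gene, had a peak 11907 bp upstream, and the nearest IgG peaks were 315377 and 333452 bp from the pair. Cxcl14 had peaks 5349 and 14299 bp upstream. Ccl1 had peaks at -18222 and 21712 bp, and 152 bp separated the first from an IgG peak.

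**Figure D4:**
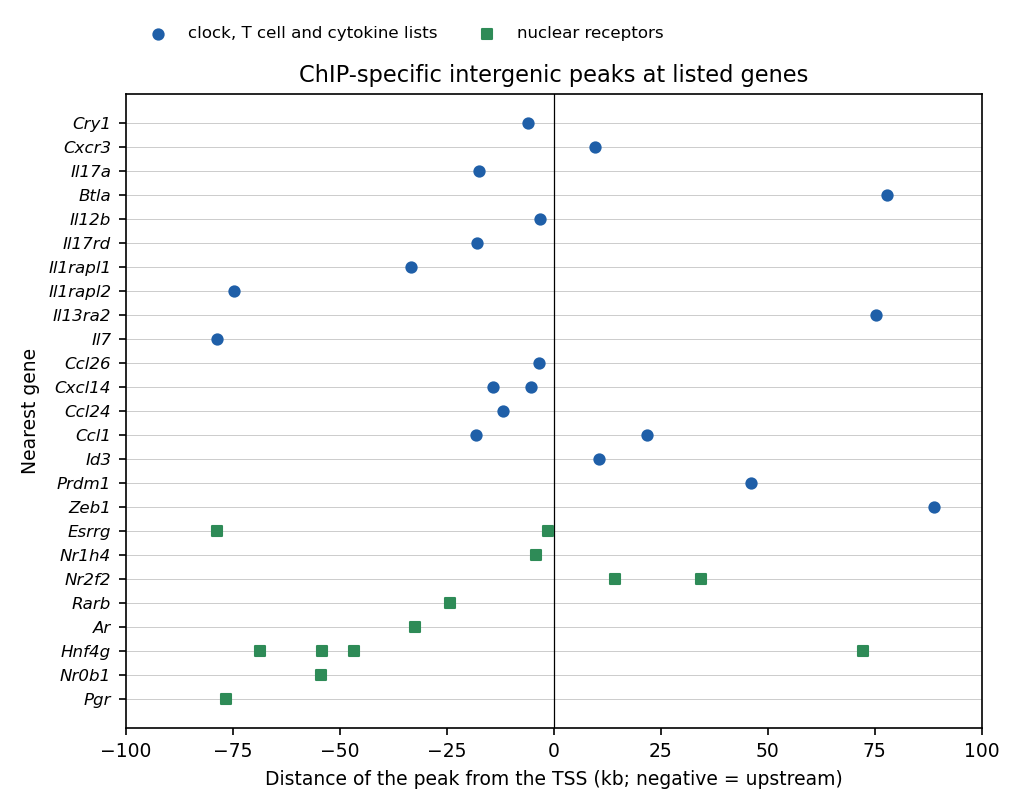
Distance of each ChIP-specific intergenic peak from the TSS (kb, horizontal axis, negative upstream) for the 17 genes of the clock, T cell and cytokine lists (circles) and the 8 nuclear receptor genes (squares), 1 row per gene. Cry1, Il12b, Ccl26, Cxcl14, Cxcr3, Esrrg and Nr1h4 have a peak within 10 kb, and the others lie up to 88831 bp away.

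REV-ERBα is known in liver as a regulator of lipid and glucose metabolism. Of 27 genes of lipid and bile acid metabolism 3 had one: Pck1, the gluconeogenic enzyme gene, 18618 bp downstream, Lpl, lipoprotein lipase, with 2 peaks 25506 and 57331 bp downstream, and Cd36, a fatty acid transporter, 59084 bp downstream (FDR 0.008373). In the IgG list 3 genes had one, and Cd36 was in both. Either count was 11.1% of the 27 genes, beside 6.99% and 7.53% of all protein-coding genes. Of 25 genes of glycolysis and mTOR only Pfkl, a phosphofructokinase gene, had any (4%), and its 2 peaks were close to the gene. They lay 3354 bp upstream (275 bp, FDR 0.007692) and 4042 bp upstream (chromosome 10, 78013951 to 78014299, 350 bp, FDR 0.00189). No intergenic IgG peak within 100 kb belonged to Pfkl, but an IgG peak lay 6102 bp from the nearer of the pair.

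Nuclear receptor genes had 8 of 34 members with a ChIP-specific peak (23.5%, 13 peaks) and 4 with an IgG peak (11.8%), 3 in common. Over all protein-coding genes these shares were 6.99% and 7.53%, and the difference was not tested. Esrrg, an estrogen-related receptor of oxidative tissues, had peaks 1304 bp upstream (chromosome 1, 187607426 to 187607549, FDR 0.02507) and 78666 bp upstream (FDR 0.008488), with no IgG peak of any class. Nr1h4, the bile acid receptor FXR, had a peak 4065 bp upstream, also with no IgG peak of any class. Nr2f2 had 2, Rarb 1, and Hnf4g 4 peaks, beside 5, 7 and 1 IgG peaks of any class. An IgG peak lay 2527 bp from a peak of Hnf4g and 177 bp from that of Pgr. The median distance of the 13 was 46643 bp, against 28306 bp for all 5749.

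The neuronal and developmental lists had the highest shares, for ChIP-specific and for IgG peaks. All protein-coding genes together had shares of 6.99% and 7.53%. Of 80 genes of neuronal adhesion, guidance and channels 32 (40.0%) had ChIP-specific peaks, 37 (46.3%) had IgG peaks, and 23 had both kinds. Nrg1, a ligand of ErbB receptors, had one 1347 bp upstream, Robo2, the Slit receptor, 2425 bp upstream, and Ntm and Sema3e 5409 and 6264 bp upstream. Of 74 developmental transcription factors 20 (27.0%) had ChIP-specific peaks, 24 (32.4%) had IgG peaks, and 15 had both kinds. Sox2 had its peak 1880 bp upstream, with an IgG peak only 252 bp away, and Sox14, Foxa1 and Msx1 had theirs at 5718, -6154 and -12667 bp. Of 40 genes of secreted ligands 9 (22.5%) had a peak in each list and 3 in both.

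Within the ligand list Bmp3, a BMP family member, had the only peak of the 28 lists with an FDR printed as 0 (chromosome 5, 98842101 to 98842399, 300 bp, 12189 bp upstream), 21652 bp from an IgG peak. Fgf9 had peaks 9860 and 35160 bp upstream and Fgf10 had 1 peak 11791 bp upstream (FDR 0.008802). Bmp4 had peaks 12656 and 20006 bp upstream.

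**Figure D5:**
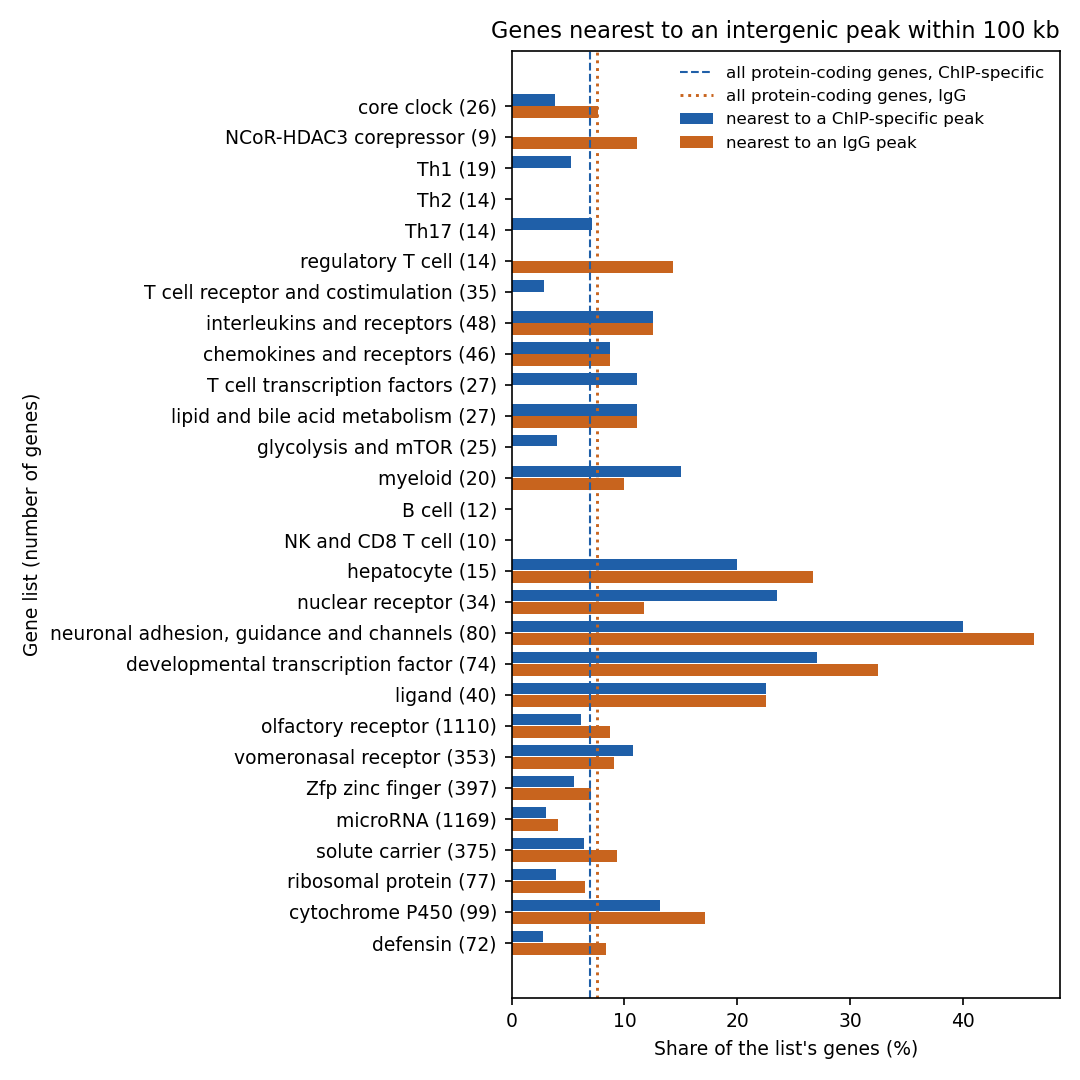
Share of the genes of each of 28 lists (%, horizontal axis, number of genes in parentheses) that were nearest to an intergenic ChIP-specific or IgG peak within 100 kb, with dashed and dotted lines at the shares of all protein-coding genes, 6.99% and 7.53%. The neuronal list is highest for both kinds of peak, at 40.0% and 46.3%, and the B cell, NK and CD8 T cell and Th2 lists have 0 for both.

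Markers of other cells were counted in the same way. None of 12 B cell genes and none of 10 NK and CD8 T cell genes had a peak of either kind. Of 20 myeloid genes 3 had a ChIP-specific peak, Marco (10376 bp upstream), Csf3r (16000 bp upstream) and Tlr4 (24234 bp upstream), and 2 had an IgG peak. Of 15 hepatocyte genes 3 had one, F9, Cyp3a11 and Apob, and all 3 had an IgG peak too. The myeloid shares were 15% and 10% and the hepatocyte shares 20% and 26.7%, beside 6.99% and 7.53% of all protein-coding genes. A peak near a marker gene says nothing on whether the gene is expressed, so these counts are not a check of the culture.

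Large gene families lay on either side of the background for protein-coding genes, 6.99% for ChIP-specific and 7.53% for IgG peaks. Olfactory receptors had 68 of 1110 genes with a ChIP-specific peak (6.13%) and 97 with an IgG peak (8.74%), 12 in both. Vomeronasal receptors had 38 of 353 (10.8%) and 32 (9.07%), 8 in both. Within 10 kb lay 47 of the 75 ChIP-specific peaks of olfactory receptors and 24 of the 43 of vomeronasal receptors. Over all 5749 peaks this share was 20.8%, and the difference was not tested. The closest peaks of vomeronasal receptors were at Vmn1r192, Vmn1r203, Vmn1r74 and Vmn1r178, and those of olfactory receptors at Olfr111, Olfr836, Olfr367-ps and Olfr1084. Zfp genes had 22 of 397 (5.54%) and 28, solute carriers 24 of 375 (6.40%) and 35, and ribosomal protein genes 3 of 77 (3.90%) and 5. Cytochrome P450 genes had 13 of 99 (13.1%) and 17 (17.2%), with Cyp2c66, Cyp3a41a, Cyp7b1 and Cyp2a5 the closest, and defensins 2 of 72 (Defb14 and Defb6) and 6.

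MicroRNA genes are not protein-coding and have no share in that background. Of 1169 such genes 36 (3.08%) had ChIP-specific peaks, 48 (4.11%) had IgG peaks, and 16 had both kinds. The closest were Mir8097 (1564 bp), Mir741 (1900 bp), Mir21c (2425 bp) and Mir187 (2845 bp), all downstream of the annotated start. The peak of Mir741 lay 502 bp from an IgG peak.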

How the data were processed

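The submitters' processing notes name mm10, BWA and HOMER, without versions. For the peak caller and the pooling of the 3 ChIP libraries, the method is not given in the sources used here. Deposited by the authors were peaks of the ChIP and of the IgG mock over the input, a list of ChIP peaks without overlap, and HOMER annotations. The q-value of each peak was deposited by the authors as an FDR, all under 0.05. The score in the tables deposited by the authors equals the peak length. Class, nearest gene and distance to the TSS come from the deposited annotation. 2 ChIP-specific peaks had no annotation and were left out.

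Members, gene lists and tests were chosen with earlier results of these data known. Two-sided exact tests (Fisher) compared shares, with p-values adjusted by Benjamini-Hochberg over 4 comparisons per pair of lists, with Wilson 95% intervals for shares and Newcombe intervals for differences (Python 3.11.15, scipy 1.17.1, statsmodels 0.14.6, pandas 2.3.3), tested on simulated data. A gene of a list was counted if a peak had it as nearest gene, and lists were described without a test. The 21900 protein-coding RefSeq genes of GRCm38.p6 were the background. Named were the 12 peaks of lowest FDR (ties by length), the 8 closest to a named gene, up to 6 or 4 genes per list, the 8 genes with most peaks, 5 IgG peaks and 3 peaks on each side of the limit. A gene that this rule names is not reported here. Further names were picked with their values known. Alternatives changed the lists, FDR, chromosomes, limit and peaks per gene. A genome sequence was not used here, so GC content, motifs, CA repeats and masked sequence under all peaks were not measured, and the windows shown replace the planned ones. The share nearest to protein-coding genes is void, since 73.7% of nearest genes, fewer than 80%, were found in RefSeq.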

Additional observations from a re-analysis of the deposited data

How the results depend on the processing

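Of 37 alternatives 30 kept the direction and the side of the threshold. The share nearest to a predicted gene against IgG passed with IgG peaks that overlap no ChIP peak (-2.31 points, exact adjusted p = 0.0482) and at an FDR of at most 0.01 (-3.78, 0.0322), and turned to 0.137 with 1 peak per gene (0.912). The FDR limit kept 1652 ChIP-specific against 3678 IgG peaks, on scales that need not be the same. The share within 10 kb against IgG turned to -0.0767 on autosomes (0.942), -0.274 with a 50 kb limit (0.781) and -2.44 with 1 peak per gene (0.0481). That last setting keeps the closest of a gene's peaks, and 85 genes in the IgG list against 28 in the ChIP-specific list had 5 or more. The share of long peaks against those beyond 100 kb fell to 1.74 with 1 peak per gene (0.115), with 4134 peaks against 1225. The cause of each of these changes was not tested. The planned comparisons of GC content, motifs, CA repeats and masked sequence, with their alternatives, were not run, because a genome was not used here, and those of protein-coding genes were void. Lists are pooled per antibody, so no replicate could be left out. No paired analysis was possible because the lists carry no replicate numbers. Read depth is unknown, and intervals cover the counting of peaks only.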
